A study of Homo sapiens with 11 samples.

Results

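The 36 genes described here are targets of the estrogen receptor in breast cancer cells. They were named by symbol as targets of the receptor, not by a threshold on these values, but with earlier results of these data known. All 36 were found among the 59087 gene symbols counted in each library. The list holds 8 factors that act on transcription or protein turnover, 8 membrane proteins, 9 signalling and trafficking proteins, 5 secreted proteins and 6 enzymes and chaperones. The study lowered or inhibited nemo-like kinase (NLK), a kinase related to the MAP kinases, in 2 human breast cancer lines, and treated the same lines with tamoxifen. BT483 comes from an estrogen receptor positive breast carcinoma. T47D-TamR was derived from T47D, also estrogen receptor positive, by passage in tamoxifen, and was kept in tamoxifen with serum stripped of steroids. Each of the 11 groups was 1 library from 1 dish, and the parental T47D line was not analysed here.

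In both lines the siRNA arm held 4 groups: a pool of control siRNAs, NLK siRNA type 1, NLK siRNA type 2, and the control pool with tamoxifen. Cells were kept without estrogen for 48 h, and siRNA was used at 10 nM for 72 h. T47D-TamR had a second arm with no siRNA, treated with DMSO, with VX-702, or with DMSO and tamoxifen. VX-702 is a p38 kinase inhibitor that the labels describe as directed at NLK, and tamoxifen and VX-702 were each given at 0.5 µM. The time of treatment in the drug arm was not given in the sources used here. Levels below are CPM, the counts scaled to a common library size with TMM factors. Values of BT483 are given in the order control siRNA, type 1, type 2, control siRNA with tamoxifen. Those of T47D-TamR follow the same order and then DMSO, VX-702, and DMSO with tamoxifen.

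The estrogen receptor is a nuclear receptor that binds DNA when estradiol occupies it, and recruits coactivators to enhancers that are often far from the genes they act on. Tamoxifen occupies the same pocket and turns the bound receptor toward corepressors in breast cells, so that genes induced by estrogen fall while it is present. Many breast tumours that carry the receptor depend on these target genes for growth, and acquired resistance to tamoxifen is a main limit of the treatment.

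The siRNAs against NLK are shown because the knockdown comparisons rest on them. They are printed as the treatment protocol gives them, 5′ to 3′ and 19 bases each. That type 1 and type 2 of the titles are siRNA 1 and siRNA 2 of the protocol was read from the numbering alone.
siRNA 1: gucaguaacagauccaaga
siRNA 2: gagcugaauuugaagacua

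Promoter sequences of 29 of the 36 members were matched by symbol in RefSeq on GRCh38.p14, as 250 bases before to 50 after each start, which gave 56 promoters. EGR3, DEPTOR, RERG, FKBP4, SGK3, GREB1 and ADCY9 had no entry. The palindromic estrogen response element, searched as GGTCA and TGACC with any 3 bases between them, was in 0 of the 56 and in 0.057% of all 35116 promoters of that length. Its single arm, GGTCA or TGACC, was in 19 of the 56 (33.9%) against 37.4% of all promoters. The forkhead motif TGTTTAC, with GTAAACA on the other strand, was in 3 member promoters (5.36%, in GFRA1, MREG and MYB) against 3.42% of all. Counted by gene, the single arm was in a promoter of 16 of the 29 matched members (55.2%) and of 42.6% of 27305 genes. The 29 members had 56 promoters and the 27305 genes 35116, so members had more windows per gene, which raises their share by gene. GGGCGG, with CCGCCC, was in 67.9% of member promoters and in 45.0% of all promoters. Each match describes letters in the window and is not evidence of a bound site.

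The promoters of 5 members are shown because these genes carry the tamoxifen results below: SUSD3 had the lowest fold change in BT483, PDZK1 and STC2 differed between the lines, RAPGEFL1 fell in BT483, and NRIP1 was lower in all 3 tamoxifen pairs. Each is written along the strand of its gene, with GGTCA or TGACC in capitals. The window is chr1:145707351-145707650 on the minus strand for PDZK1, chr5:173328365-173328664 on the minus strand for STC2, chr17:40177220-40177519 on the plus strand for RAPGEFL1, chr21:15064951-15065250 on the minus strand for NRIP1 and chr9:93058451-93058750 on the plus strand for SUSD3, all on GRCh38.p14. The motif stands upstream of the start in PDZK1, RAPGEFL1 and NRIP1 and downstream of it in STC2, and the SUSD3 window holds none. NRIP1 has 3 promoters in the table, of which only the 1 shown holds the motif, and PDZK1 has 2, both with it. The 5 do not stand for all members called in BT483. No window of GFRA1, NPY1R, TSKU or ELOVL2, also called there, holds the motif, and not every window of TPBG does.
PDZK1: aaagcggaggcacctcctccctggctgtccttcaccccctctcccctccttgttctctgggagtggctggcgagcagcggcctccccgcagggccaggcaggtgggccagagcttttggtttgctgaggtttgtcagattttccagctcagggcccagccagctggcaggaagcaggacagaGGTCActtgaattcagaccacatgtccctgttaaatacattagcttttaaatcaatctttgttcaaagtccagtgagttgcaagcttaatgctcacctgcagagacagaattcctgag
STC2: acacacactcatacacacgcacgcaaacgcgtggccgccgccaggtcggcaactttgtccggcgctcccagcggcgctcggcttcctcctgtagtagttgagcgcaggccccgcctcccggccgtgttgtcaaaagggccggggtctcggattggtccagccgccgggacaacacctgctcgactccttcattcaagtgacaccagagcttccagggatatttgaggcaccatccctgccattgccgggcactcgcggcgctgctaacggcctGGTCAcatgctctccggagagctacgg
RAPGEFL1: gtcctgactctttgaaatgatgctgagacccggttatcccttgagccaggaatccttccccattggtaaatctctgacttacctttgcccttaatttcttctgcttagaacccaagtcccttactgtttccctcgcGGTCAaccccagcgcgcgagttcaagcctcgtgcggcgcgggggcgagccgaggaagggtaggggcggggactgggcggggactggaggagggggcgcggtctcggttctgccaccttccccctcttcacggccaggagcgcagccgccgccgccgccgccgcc
NRIP1: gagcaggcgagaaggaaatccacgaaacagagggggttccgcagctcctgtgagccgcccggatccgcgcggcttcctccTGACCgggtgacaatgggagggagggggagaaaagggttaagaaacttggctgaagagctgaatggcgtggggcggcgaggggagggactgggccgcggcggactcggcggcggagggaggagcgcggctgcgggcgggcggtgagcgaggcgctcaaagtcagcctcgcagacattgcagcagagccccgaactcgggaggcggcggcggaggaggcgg
SUSD3: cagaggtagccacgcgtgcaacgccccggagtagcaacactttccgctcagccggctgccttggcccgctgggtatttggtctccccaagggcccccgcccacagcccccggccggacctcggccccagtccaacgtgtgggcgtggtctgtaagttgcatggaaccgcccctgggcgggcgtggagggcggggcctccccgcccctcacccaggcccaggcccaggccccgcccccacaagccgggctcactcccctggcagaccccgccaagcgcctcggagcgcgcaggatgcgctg

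The libraries held between 14637083 and 26915863 counts, and 3 counts, the floor used here for values not told from 0, came to between 0.112 and 0.195 CPM. NLK itself stood at 30.00, 8.56, 5.502 and 35.03 CPM in BT483 and 29.6, 10.2, 11.95, 28.6, 33.2, 28.01 and 33.2 CPM in T47D-TamR. The 4 knockdown libraries had the lowest NLK values of the 11, at 28.5% and 18.3% of the control in BT483 and 34.5% and 40.4% in T47D-TamR. All 8 luminal markers (KRT8, KRT18, KRT19, EPCAM, CDH1, ESR1, GATA3, FOXA1) were above the floor in every library, with summed levels of 13830 to 15910 CPM in BT483 and 5751 to 8258 in T47D-TamR, and 5 leukocyte markers summed to at most 0.265 CPM. Labels do not say that the libraries are repeats of separate cultures, so p-values measure the spread between these libraries, and each lone library is taken to be as variable as the rest. In the fits per line, that spread is the difference between the NLK siRNAs within each line and between the tamoxifen effects of the T47D-TamR arms. Real differences between siRNAs or arms therefore count as error, also in the test of tamoxifen in BT483. In bulk RNA, fewer cells of a kind and less RNA per cell cannot be told apart.

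Levels of the members differed widely between the lines. In the 8 libraries of the siRNA arms, 29 of the 36 members were higher in BT483 in the quasi-likelihood test of edgeR (Benjamini-Hochberg adjusted p under 0.05), where 35.6% of 21990 genes were, and 3 were lower (FHL2, PKIB and CHPT1), where 35.1% of genes were. The median difference of the members was 1.69 on the log2 scale, against 0.01 over all genes tested. The 4 BT483 libraries lay above the 4 of T47D-TamR without overlap for 24 members, where 33.3% of genes did so, below them for 1, FHL2, where 31.6% of genes did, and overlapped for 11. Both the 29 and the 24 include 9 members that averaged under 1 CPM in T47D-TamR, and the median includes them too. These 9 could be tested mainly because of their level in BT483, so their direction was nearly set in advance. FHL2 was called lower under every alternative run. PKIB was not called with DESeq2, RLE scaling, limma or at least 10 counts in every library. With 1 of the 8 libraries left out, it was called without the type 2 library of either line and not called without any of the other 6. CHPT1 was not called with limma, with at least 10 counts in every library or with no filter. It was called without the control siRNA library of either line and not called without any of the other 6. The ratio of summed counts between these libraries was 6272 (exact 95% interval 3738 to 11470) for NPY1R, 3417 (2036 to 6250) for GREB1 and 1666 for GFRA1. For FHL2 the log2 difference was -1.99 ± 0.19. Markers of other cell types differed in this contrast too, but not all in 1 direction. The 4 basal markers summed to 3.07 to 10.9 CPM in BT483 and 42.7 to 78.2 CPM in T47D-TamR, and 7 fibroblast markers to 11.8 to 14.4 and 51.7 to 73.8 CPM. Of 5 fibroblast markers tested, 4 were lower in BT483 and 1 was higher. Only 1 of the 7 averaged at least 5 CPM in the comparisons of 2 libraries with tamoxifen or type 1. Of 4 endothelial markers 2 were tested, and 2 were called higher in BT483 by edgeR, with a median log2 difference of 4.804. The part of these markers in the result was not tested. Origin, growth medium and resistance differ together between the lines and cannot be told apart.

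The receptor itself, ESR1, stood at 153, 121, 146 and 123 CPM in BT483 and 24.98, 20.4, 31.8, 24.1, 22.5, 21.2 and 22.4 CPM in T47D-TamR, and its summed counts were 5.39-fold higher in BT483 (exact 95% interval 5.17 to 5.63, counting error only). Every BT483 library lay above every T47D-TamR library. Estrogen targets outside the list also differed between the lines. TFF1, a secreted trefoil peptide, held 680.3, 471, 723 and 65.5 CPM in BT483 and 0 to 4 counts in each T47D-TamR library, a ratio of summed counts of 9399 (4027 to 28950). PGR, the progesterone receptor, stood at 12.1, 12.1, 29.7 and 1.06 CPM in BT483 and 0.682, 0.516, 0.851, 0.0375, 0.772, 0.459 and 0.2301 CPM in T47D-TamR, a ratio of 28.0 (21.1 to 37.8).

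Per unit of length, the members with the highest median level in BT483 were XBP1 at 740.8 TPM, HSPB8 at 686 TPM, NPY1R at 683 TPM and FKBP4 at 585 TPM. The ranges over libraries of HSPB8 (357 to 942 TPM), NPY1R (384 to 1020.2 TPM) and FKBP4 (489.9 to 623 TPM) overlapped each other and that of XBP1 (675 to 834 TPM) except for FKBP4 against XBP1. In T47D-TamR the order began with XBP1 at 294 TPM and FKBP4 at 291 TPM, whose ranges overlapped, followed by SLC39A6 at 106 TPM. The lowest medians were FHL2 at 1.47 TPM in BT483 and, in T47D-TamR, 10 members with a mean under 5 CPM. Of those 10, KCNK5 averaged 1.94 CPM and the other 9 (GREB1, EGR3, NPY1R, GFRA1, SUSD3, PDZK1, OLFM1, SERPINA1 and ELOVL2) averaged under 1 CPM, and EGR3 had 3 counts or fewer in every T47D-TamR library. Changes within T47D-TamR could be read for the 26 other members only.

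**Figure D1:**
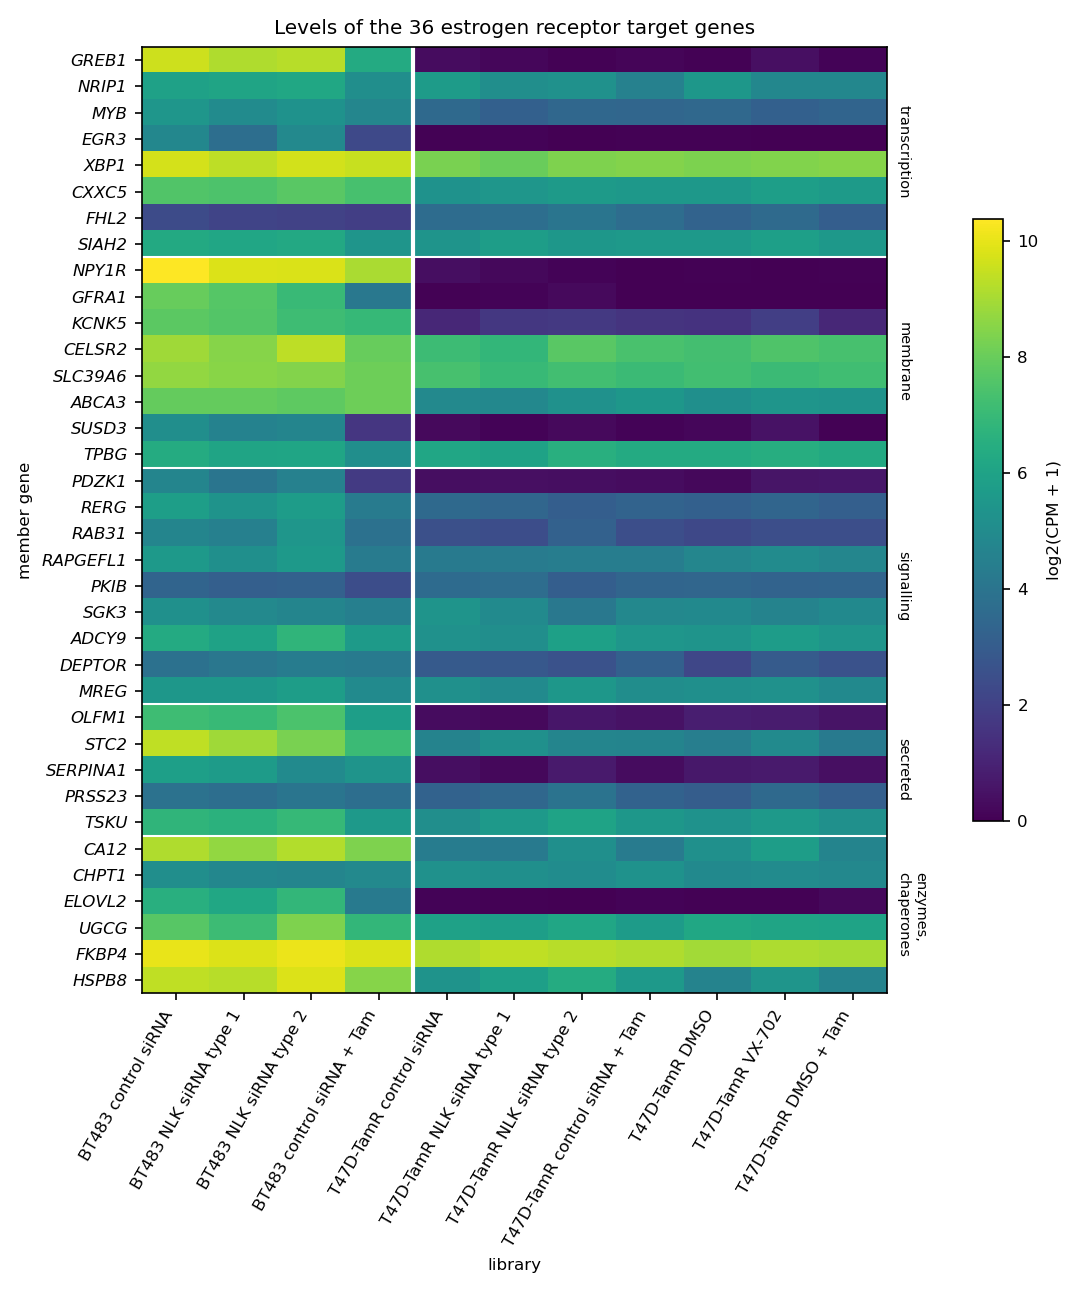
Level of each of the 36 members (rows, ordered by role) in each of the 11 libraries (columns) as log2(CPM + 1), with the white vertical line between BT483 and T47D-TamR. The 9 members under 1 CPM in T47D-TamR show as the darkest cells on the right, and the BT483 library with tamoxifen is darker than its neighbours for GREB1, GFRA1, SUSD3, PDZK1 and ELOVL2.

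Most members were lower with tamoxifen in BT483. The library with tamoxifen was below the control siRNA library for 34 of 36 members in the fit, with a median log2 fold change of -0.89, while 51.0% of all 24023 genes tested were lower. Of the 36, 11 fell in the adjusted edgeR test, where 1.4% of genes did, and 0 rose. At an unadjusted p under 0.05, 21 members were lower, where 6.07% of genes were. The 11 were GREB1 of the transcription group, NPY1R, GFRA1, SUSD3 and TPBG of the membrane group, PDZK1, RERG and RAPGEFL1 of the signalling group, STC2 and TSKU of the secreted group, and ELOVL2 of the enzymes. This comparison is 1 library against 1, with the spread taken from the fit of all 11. The member list was chosen with earlier results of these data known.

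Among factors of transcription, all 8 were lower with tamoxifen in BT483 and 1 passed the test. GREB1, a chromatin-bound coactivator of the receptor, stood at 776, 564, 619.7 and 80.04 CPM in BT483 and 0.281, 0.119, 0.0425, 0.113, 0.0406, 0.334 and 0.0767 CPM in T47D-TamR. The tamoxifen library was the lowest of BT483 by far, at 10.3% (9.84 to 10.8%) of its control, with the exact 95% interval of the count ratio in brackets, which covers counting error only (log2 fold change -3.30 ± 0.25, edgeR adjusted p = 2.26e-05). EGR3, a zinc finger factor of the early growth response family, stood at 27.1, 12.5, 29.03 and 3.87 CPM in BT483 and 0.0401, 0.0794, 0, 0.0375, 0.0406, 0 and 0 CPM in T47D-TamR. Its value with tamoxifen was below the other 3 BT483 libraries, but the difference did not pass the test (log2 fold change -2.83 ± 0.60, edgeR adjusted p = 0.0573). An uncharacterised gene on the opposite strand overlaps EGR3 and took 555 counts against its 1558, and whether counting used strand was not given in the sources used here.

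NRIP1, a corepressor that binds the occupied receptor, stood at 61.1, 65.1, 72.05 and 34.01 CPM in BT483 and 50.4, 33.98, 36.97, 22.7, 44.4, 27.2 and 27.3 CPM in T47D-TamR. Its BT483 value with tamoxifen was below the 3 others (log2 fold change -0.87 ± 0.24, edgeR adjusted p = 0.123). SIAH2, a ubiquitin ligase, stood at 77.5, 69.1, 76.8 and 41.9 CPM in BT483 and 40.1, 53.8, 43.9, 47.5, 47.3, 57.99 and 45.9 CPM in T47D-TamR, and was likewise lowest with tamoxifen in BT483 (log2 fold change -0.91 ± 0.24, edgeR adjusted p = 0.0916). MYB, a proto-oncogenic factor, stood at 42.8, 31.1, 37.8 and 26.2 CPM in BT483 and 10.6, 8.02, 10.2, 9.87, 10.3, 8.06 and 9.28 CPM in T47D-TamR and had a log2 fold change of -0.73 in BT483. The remaining factors had smaller differences in BT483. XBP1, which drives the unfolded protein response, stood at 833, 662, 808 and 733 CPM in BT483 and 311, 258, 334, 354, 323, 344 and 364 CPM in T47D-TamR, and its tamoxifen value lay within the range of the other BT483 libraries. CXXC5, a zinc finger protein, stood at 191, 180.3, 213 and 162 CPM in BT483 and 38.6, 42.8, 48.96, 45.9, 46.1, 55.9 and 49.4 CPM in T47D-TamR. FHL2, a LIM domain cofactor, stood at 4.13, 3.37, 3.09 and 2.81 CPM in BT483 and 11.7, 12.3, 15.5, 12.2, 8.78, 10.98 and 7.52 CPM in T47D-TamR and was the member whose level lay higher in every T47D-TamR library than in any BT483 library.

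Of the 8 membrane proteins, 7 were lower in BT483 with tamoxifen and 4 passed the test. SUSD3, a small protein with a sushi domain, stood at 34.5, 23.3, 25.7 and 2.12 CPM in BT483 and 0.2005, 0.0794, 0.213, 0.0751, 0.122, 0.417 and 0.0384 CPM in T47D-TamR. Tamoxifen left 6.16% (4.598 to 8.11%) of the control (log2 fold change -4.04 ± 0.39, edgeR adjusted p = 0.000115), the lowest fold change of the list. GFRA1, the co-receptor through which GDNF acts on RET, stood at 253, 199, 129.9 and 16.8 CPM in BT483 and 0.0401, 0.0794, 0.213, 0, 0, 0 and 0 CPM in T47D-TamR and was left at 6.64% (6.01 to 7.32%) (log2 fold change -3.94 ± 0.36, edgeR adjusted p = 0.000537). For both genes the tamoxifen library lay far below the other 3 of BT483, and the T47D-TamR libraries were near 0. NPY1R, a receptor of neuropeptide Y, stood at 1339, 921, 880.2 and 534 CPM in BT483 and 0.321, 0.159, 0.0851, 0, 0.0406, 0 and 0.0384 CPM in T47D-TamR. Its tamoxifen value was 39.9% (39.05 to 40.7%) of the control and also below both knockdown libraries (log2 fold change -1.35 ± 0.26, edgeR adjusted p = 0.0156). TPBG, an oncofetal glycoprotein that dampens Wnt signalling, stood at 82.1, 66.6, 68.8 and 34.2 CPM in BT483 and 69.6, 62.2, 93.3, 79.9, 81.5, 87.05 and 79.3 CPM in T47D-TamR. Its T47D-TamR values lay on both sides of the BT483 control, and its BT483 value with tamoxifen was the lowest of all 11 libraries (log2 fold change -1.29 ± 0.27, edgeR adjusted p = 0.0269).

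The 4 other membrane proteins were not called. Of the genes above, NPY1R is overlapped on the opposite strand by NPY5R, which took 1486 counts against its 75631. KCNK5, a potassium channel, stood at 218, 193, 141 and 123 CPM in BT483 and 1.203, 2.18, 2.297, 1.95, 1.91, 2.84 and 1.23 CPM in T47D-TamR (log2 fold change -0.85 ± 0.32, edgeR adjusted p = 0.405). CELSR2, an atypical cadherin, stood at 483, 363, 662 and 249 CPM in BT483 and 138, 118, 211, 168, 153, 184 and 162 CPM in T47D-TamR and varied between the knockdown libraries of BT483 as much as with tamoxifen (log2 fold change -0.98 ± 0.55, edgeR adjusted p = 0.799). SLC39A6, a zinc importer, stood at 419, 367, 355 and 272 CPM in BT483 and 165, 129, 152, 134, 148, 133 and 147 CPM in T47D-TamR (log2 fold change -0.65 ± 0.22, edgeR adjusted p = 0.27). For KCNK5, CELSR2 and SLC39A6 the tamoxifen library was the lowest of BT483. ABCA3, a lipid transporter, stood at 244, 240.1, 224 and 270.2 CPM in BT483 and 28.8, 28.1, 37.1, 43.6, 35.4, 41.8 and 39.5 CPM in T47D-TamR, and was 1 of 2 members higher with tamoxifen in BT483, at 111% (106 to 115%) of the control (log2 fold change 0.12 ± 0.24, edgeR adjusted p = 0.992).

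Among 9 signalling and trafficking proteins, 8 were lower in BT483 with tamoxifen and 3 passed the test. PDZK1, a scaffold for membrane transporters, stood at 25.7, 15.6, 22.7 and 2.43 CPM in BT483 and 0.321, 0.357, 0.298, 0.263, 0.163, 0.501 and 0.537 CPM in T47D-TamR. Tamoxifen left 9.44% (7.15 to 12.3%) of the control (log2 fold change -3.42 ± 0.45, edgeR adjusted p = 0.000828). A near-identical copy, PDZK1P1, took 330 counts against the 1431 of PDZK1 over the 11 libraries, so its reads may be split between them. RERG, a small GTPase that restrains growth, stood at 55.4, 39.4, 52.9 and 18.9 CPM in BT483 and 10.7, 9.69, 7.699, 8.89, 8.08, 9.39 and 7.94 CPM in T47D-TamR, and its tamoxifen value was 34.2% (30.6 to 38.1%) of the control (log2 fold change -1.57 ± 0.29, edgeR adjusted p = 0.0115). RAPGEFL1, related to exchange factors of Rap, stood at 47.5, 35.6, 47.1 and 19.2 CPM in BT483 and 18.4, 18.9, 19.99, 20.3, 26.2, 31.2 and 25.96 CPM in T47D-TamR and was left at 40.4% (36.1 to 45.2%) (log2 fold change -1.33 ± 0.27, edgeR adjusted p = 0.0194). With tamoxifen, RAPGEFL1 in BT483 came to a level within the range of T47D-TamR.

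None of the other 6 signalling proteins passed the test in BT483. RAB31, a vesicle GTPase, stood at 25.8, 22.3, 43.4 and 13.5 CPM in BT483 and 4.73, 4.53, 8.29, 4.62, 3.82, 4.59 and 4.64 CPM in T47D-TamR, lowest in BT483 with tamoxifen and highest with siRNA type 2. PKIB, an inhibitor of protein kinase A, stood at 9.06, 7.91, 8.25 and 4.47 CPM in BT483 and 11.5, 12.1, 7.699, 9.49, 9.75, 8.77 and 9.05 CPM in T47D-TamR (log2 fold change -1.04 ± 0.37, edgeR adjusted p = 0.319). SGK3, a kinase downstream of phosphoinositides, stood at 36.2, 28.7, 25.4 and 21.4 CPM in BT483 and 40.2, 30.5, 16.97, 28.1, 29.9, 24.2 and 29.2 CPM in T47D-TamR (log2 fold change -0.78 ± 0.35, edgeR adjusted p = 0.57). The tamoxifen library was the lowest of BT483 for all 3. ADCY9, an adenylyl cyclase, stood at 79.5, 62.6, 110.2 and 49.3 CPM in BT483 and 37.4, 34.1, 58.1, 43.5, 40.99, 52.8 and 41.7 CPM in T47D-TamR, and MREG, which acts in melanosome transport, at 44.8, 44.2, 53.4 and 30.7 CPM in BT483 and 35.7, 30.1, 43.9, 32.99, 35.3, 36.9 and 29.3 CPM in T47D-TamR. PECR overlaps MREG on the same strand and took 1956 counts against its 9797. C8orf44 overlaps SGK3 on the same strand and was not among the counted symbols, so its reads cannot be told apart from those of SGK3. DEPTOR, which inhibits mTOR, stood at 13.7, 16.2, 19.5 and 18.01 CPM in BT483 and 6.62, 6.35, 5.19, 7.99, 3.66, 6.85 and 5.18 CPM in T47D-TamR, and was the other member higher with tamoxifen in BT483 (log2 fold change 0.37 ± 0.32, edgeR adjusted p = 0.897).

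All 5 secreted proteins were lower with tamoxifen in BT483 and 2 passed the test. STC2, a stanniocalcin hormone that is also induced by cell stress, stood at 671, 477, 318 and 136 CPM in BT483 and 23.9, 36.5, 25.4, 24.95, 20.6, 29.98 and 18.5 CPM in T47D-TamR. Both knockdown libraries of BT483 lay below the control and the tamoxifen library lay far below both, at 20.3% (19.6 to 21.1%) of the control (log2 fold change -2.32 ± 0.33, edgeR adjusted p = 0.00425). TSKU, a leucine-rich protein that binds several growth factors, stood at 111, 98.6, 122 and 48.5 CPM in BT483 and 34.4, 46.2, 64.6, 44.7, 37.7, 46.5 and 35.7 CPM in T47D-TamR, and its tamoxifen value was 43.8% (40.8 to 47.01%) of the control (log2 fold change -1.22 ± 0.28, edgeR adjusted p = 0.0469). OLFM1, an olfactomedin, stood at 144, 128, 174 and 55.9 CPM in BT483 and 0.281, 0.198, 0.553, 0.413, 0.813, 0.751 and 0.4602 CPM in T47D-TamR, lowest in BT483 with tamoxifen but not called (log2 fold change -1.39 ± 0.34, edgeR adjusted p = 0.0895). SERPINA1, the inhibitor of neutrophil elastase, stood at 57.3, 50.8, 30.6 and 40.99 CPM in BT483 and 0.321, 0.159, 0.681, 0.263, 0.569, 0.668 and 0.345 CPM in T47D-TamR, with the lowest BT483 value in the siRNA type 2 library. PRSS23, a serine protease, stood at 13.98, 12.6, 15.3 and 12.6 CPM in BT483 and 8.58, 10.1, 14.7, 8.63, 7.27, 10.8 and 7.79 CPM in T47D-TamR, which put its tamoxifen value level with type 1. FZD4 overlaps PRSS23 on the opposite strand and took 6428 counts against its 2871.

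All 6 enzymes and chaperones were lower with tamoxifen in BT483, and ELOVL2, which elongates long polyunsaturated fatty acids, passed the test. It stood at 93.3, 72.1, 118 and 18.4 CPM in BT483 and 0.0802, 0.0397, 0, 0.0751, 0.0406, 0.0417 and 0.153 CPM in T47D-TamR, so that tamoxifen left 19.7% (17.7 to 21.8%) of the control (log2 fold change -2.37 ± 0.35, edgeR adjusted p = 0.00328). HSPB8, a small heat shock protein, stood at 673, 611, 913 and 356 CPM in BT483 and 39.4, 57.5, 83.4, 48.6, 24.2, 41.3 and 24.1 CPM in T47D-TamR (log2 fold change -0.94 ± 0.32, edgeR adjusted p = 0.323). CA12, a carbonic anhydrase of the cell surface, stood at 575, 422, 584 and 333 CPM in BT483 and 19.8, 17.9, 35.5, 18.95, 36.6, 53.5 and 24.7 CPM in T47D-TamR. HSPB8 and CA12 had their lowest BT483 values with tamoxifen. UGCG, which makes glucosylceramide, stood at 205, 138, 330.0 and 118 CPM in BT483 and 61.3, 55.9, 69.1, 50.4, 72.4, 66.05 and 64.96 CPM in T47D-TamR, with a spread between the knockdown libraries wider than its tamoxifen difference. FKBP4, a co-chaperone of steroid receptors, stood at 1058, 918, 1089 and 884 CPM in BT483 and 566, 673, 619.9, 571, 489, 558 and 519 CPM in T47D-TamR. CHPT1, which makes phosphatidylcholine, stood at 34.4, 27.3, 25.4 and 28.8 CPM in BT483 and 37.6, 35.1, 32.3, 38.7, 29.5, 31.7 and 27.5 CPM in T47D-TamR, and its tamoxifen value lay between those of the control and the knockdown libraries.

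**Figure D2:**
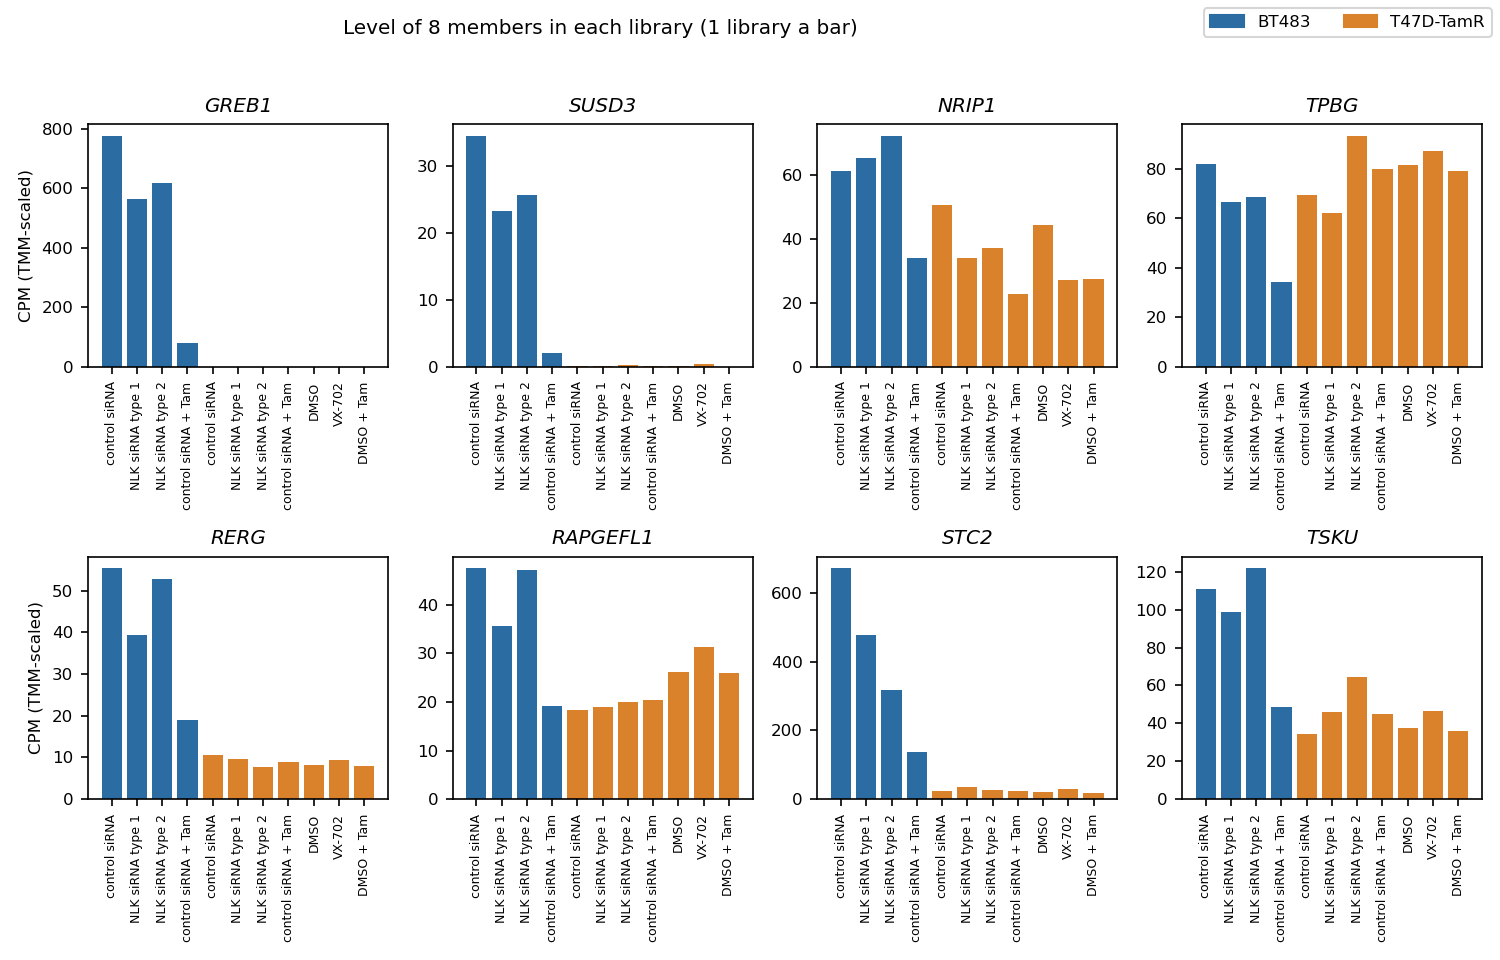
CPM (vertical axis from 0, scaled for each gene) of 8 members in each library, 1 bar a library, BT483 in blue and T47D-TamR in orange. The BT483 tamoxifen bar is the lowest of its line in all 8 panels, and NRIP1 in T47D-TamR is lowest in both tamoxifen libraries, at 22.7 and 27.3 CPM, and with VX-702, at 27.2 CPM.

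The calls in BT483 depended on the tool and on which libraries of the other line were in the fit. T47D-TamR libraries enter this test only through the shared spread, the scaling and the gene filter. DESeq2 called 14 members lower, where 475 of 24023 genes were called in either direction. On the deposited log2 TPM values limma called 2, GREB1 and SUSD3, where 7 of 18727 genes were called. When the T47D-TamR library with control siRNA, with control siRNA and tamoxifen, with DMSO, or with DMSO and tamoxifen was left out, 7 members were called in each case. TPBG, RERG, RAPGEFL1 and TSKU were then not called, and over all genes these runs called 190 to 208. Without the VX-702 library 10 were called and TSKU was not. Without the type 1 or the type 2 library of T47D-TamR 13 were called in each case. Over all genes these runs called 327, 478 and 480, in that order. With at least 10 counts required in every library, 27 members were tested and RERG, RAPGEFL1 and STC2 were called, where 254 of 14670 genes were. All 8 proliferation markers were lower with tamoxifen in BT483, and 7 were called by edgeR, where 1.4% of genes were lower and called. Their median log2 fold change was -2.85, with summed levels of 884, 469.8, 290 and 119 CPM in the BT483 libraries. They summed to between 906 and 1371 CPM in T47D-TamR, and their part in the members' result was not tested.

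Genes around the receptor that are not on the list were read from 3 further lists, also chosen with earlier results of these data known. Of 18 other genes induced by estrogen, 16 were lower with tamoxifen in BT483 and 8 were called lower, where 1.4% of genes were. Their median log2 fold change was -1.65. The lowest were the chemokine CXCL12 at -4.69 ± 0.58, PGR at -3.52 ± 0.70, TFF1 at -3.40 ± 0.33 and the adenosine receptor ADORA1 at -2.74 ± 0.49, with edgeR adjusted p of 0.00122, 0.0434, 0.000828 and 0.0082. Of 6 genes that estrogen lowers, 5 were higher and 0 were called by edgeR. At an unadjusted p under 0.05, 1 of them was higher, where 625 of 24023 genes were. The highest were BMF at 0.76 ± 0.25 and BIK at 0.59 ± 0.36, both proteins that promote apoptosis. Of 18 receptors, cofactors and chaperones, 0 were called and 2 were lower at an unadjusted p under 0.05, where 6.07% of genes were. ESR1 changed by -0.34 ± 0.28 with an edgeR adjusted p of 0.888, and NLK by 0.20 ± 0.30 with 0.972.

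In T47D-TamR the members did not move together with tamoxifen. Of the 26 members with a mean of at least 5 CPM there, 15 were higher and 11 lower, with a median log2 fold change of 0.09 and a range from -0.88 to 0.42. Of these 26, 0 passed the adjusted edgeR test, where 0.221% of genes did, and 2, NRIP1 and ABCA3, had an unadjusted p under 0.05, where 6.01% of genes did. DESeq2 called 1 member, NRIP1, where 162 of 24023 genes were called, and limma called 0. ESR1 had a log2 fold change of 0.02 ± 0.20 and NLK of 0.02 ± 0.21, while TFF1 and PGR were under 1 CPM in T47D-TamR and their fits were not read. The 2 pairs of libraries had member medians of 0.06 in the siRNA arm (16 of 25 members higher) and -0.04 in the drug arm (7 of 24 higher), as log2 differences of CPM with a prior count of 2.

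NRIP1 was the member nearest to a call in T47D-TamR. Tamoxifen left 45.1% (40.9 to 49.7%) of the control in the siRNA arm and 61.6% (56.01 to 67.8%) in the drug arm (log2 fold change -0.88 ± 0.17, edgeR adjusted p = 0.0557). DESeq2 called it, and edgeR called it when the BT483 library of type 1 or either T47D-TamR knockdown library was left out. Its fold change in BT483 was -0.87 ± 0.24, and the difference between the lines was 0.01 ± 0.29 with an edgeR adjusted p of 1. ABCA3 was higher in both pairs of T47D-TamR (log2 fold change 0.42 ± 0.18, edgeR adjusted p = 0.751), and DEPTOR likewise (log2 fold change 0.42 ± 0.24, edgeR adjusted p = 0.867). After NRIP1 the lowest fold changes were CA12 at -0.28 ± 0.35 and SGK3 at -0.23 ± 0.25. Fitted values of NPY1R, GFRA1, SUSD3 and ELOVL2 in T47D-TamR rest on 0 to 10 counts a library and were not read. None of the proliferation markers, the other estrogen-induced genes or the genes that estrogen lowers was called in T47D-TamR by edgeR, with 2, 3 and 1 of them at an unadjusted p under 0.05. Over all genes tested 6.01% stood at that p.

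**Figure D3:**
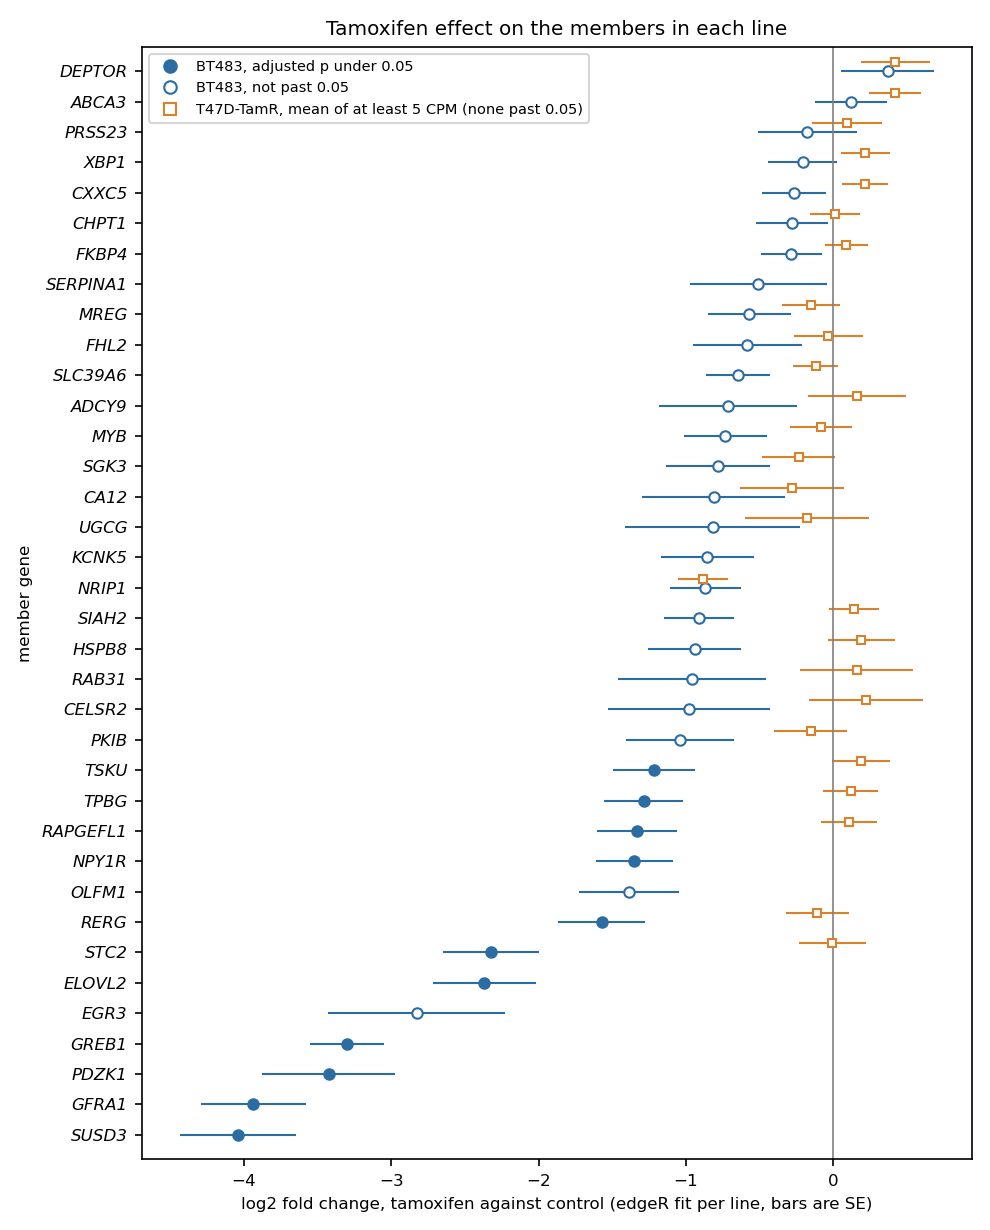
Log2 fold change with tamoxifen (horizontal axis, bars are SE of the edgeR fit per line) of each member (vertical axis) in BT483 (blue circles, filled where the adjusted p is under 0.05) and, for the 26 members with at least 5 CPM there, in T47D-TamR (orange squares). BT483 points lie left of 0 for 34 of 36 members down to -4.04, while T47D-TamR points lie around 0 except NRIP1 at -0.88.

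The difference in tamoxifen response between the lines was tested directly. The fold change in BT483 minus that in T47D-TamR was negative for 34 of 36 members, with a median of -0.88, and for 25 of the 26 members detected in T47D-TamR, with a median of -0.59. It passed the test for 2 members, PDZK1 and STC2, where 0.687% of genes were lower and called, and 11 members had an unadjusted p under 0.05, where 5.57% of genes were lower at that p. Of the 26 detected members 1, STC2, passed the test and 7 were lower at an unadjusted p under 0.05. STC2 differed by -2.32 ± 0.39 (edgeR adjusted p = 0.0224), with -2.32 ± 0.33 in BT483 and 0.00 ± 0.23 in T47D-TamR. In T47D-TamR its 2 tamoxifen libraries were at 104% and 89.9% of their controls. PDZK1 differed by -4.16 ± 0.71 (edgeR adjusted p = 0.0109), but its T47D-TamR side rests on 4 to 14 counts a library.

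Next in order among detected members were RERG at -1.47 ± 0.36, RAPGEFL1 at -1.44 ± 0.33, TPBG at -1.41 ± 0.33 and TSKU at -1.41 ± 0.34, with edgeR adjusted p of 0.0974, 0.0661, 0.077 and 0.0951. For ESR1 the difference was -0.36 ± 0.34 (edgeR adjusted p = 0.856) and for NLK 0.18 ± 0.36. DESeq2 called 6 members, these 4 with PDZK1 and STC2, where 330 of 24023 genes were called, and limma called 0. Both edgeR calls were lost when the T47D-TamR library with control siRNA, control siRNA and tamoxifen, DMSO, or DMSO and tamoxifen was left out (0 called in each case), while 6 were called when the T47D-TamR library of type 1, or that of type 2, was left out. Proliferation markers differed the same way, with 6 of 8 called lower, and their part in the members' result was not tested. BT483 received tamoxifen from a culture without it and T47D-TamR from a line kept in it, so line and earlier exposure cannot be told apart.

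Taken over both lines in 1 additive fit, 22 of the 26 members detected in T47D-TamR were lower with tamoxifen, with a median log2 fold change of -0.25, and 0 were called. NRIP1 was lower (log2 fold change -0.88 ± 0.15, edgeR adjusted p = 0.0607) and ABCA3 higher (0.32 ± 0.14) at an unadjusted p under 0.05. At that p, 1063 of all 24023 genes tested were lower and 527 were higher. Of all 36 members 2 were called, GFRA1 (-3.85 ± 0.39, edgeR adjusted p = 0.00906) and SUSD3 (-3.76 ± 0.43, edgeR adjusted p = 0.00538), where 0.0416% of genes were lower and called. GREB1, OLFM1, EGR3, NPY1R and ELOVL2 were lower at an unadjusted p under 0.05. These 7 genes averaged under 1 CPM in T47D-TamR, so their values rest mainly on the 1 tamoxifen pair of BT483. ESR1 had -0.11 ± 0.16 and NLK 0.09 ± 0.21. Both calls were lost without the BT483 control library, when NRIP1 alone was called, and without the BT483 tamoxifen library, when 0 were. Of the 26 members detected in T47D-TamR, 9 were lower in all 3 pairs, where 14.7% of 11732 genes with at least 5 CPM there were: NRIP1, MYB, SLC39A6, RERG, PKIB, SGK3, MREG, CA12 and UGCG.

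With NLK lowered in both lines, some members were higher and others lower. In the fit over both lines 15 of the 26 detected in T47D-TamR were higher and 11 lower, with a median log2 fold change of 0.05. Over all 36, 17 were higher and 19 lower, and 0 passed the adjusted edgeR test, where 0.00416% of genes did. At an unadjusted p under 0.05 there were 2 (NPY1R and SGK3), where 5.54% of genes were, and DESeq2 and limma called 0. The lowest fold changes were NPY1R at -0.66 ± 0.22, GFRA1 at -0.51 ± 0.29, SGK3 at -0.48 ± 0.21 and SUSD3 at -0.45 ± 0.30, and for NPY1R, GFRA1 and SUSD3 they rest mainly on BT483. The highest were HSPB8 at 0.53 ± 0.25, RAB31 at 0.51 ± 0.32, TSKU at 0.35 ± 0.27 and PRSS23 at 0.30 ± 0.20. The 2 knockdown libraries of a line share 1 control. Of the 26 detected, 5 (MYB, SLC39A6, RERG, SGK3 and CHPT1) were below it in all 4 knockdown libraries, where 12.5% of 11732 genes were, and 0 were above it in all 4, where 14.7% of genes were. SGK3 in T47D-TamR was at 75.9% of the control with type 1 and 42.2% with type 2, and in BT483 at 79.3% and 70.2%. NLK itself was called in BT483 (log2 fold change -2.13 ± 0.26, edgeR adjusted p = 0.0198) but not in T47D-TamR (log2 fold change -1.38 ± 0.24, edgeR adjusted p = 0.333), so the test did not call the loss of the targeted gene there. Over both lines NLK was called (log2 fold change -1.75 ± 0.21, edgeR adjusted p = 0.0308) and ESR1 had -0.03 ± 0.16.

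In BT483, 25 of 36 members were lower with knockdown and the median was -0.20. None was called by edgeR, where 0.00416% of genes were, and 3 were lower at an unadjusted p under 0.05 (STC2, GFRA1 and NPY1R), where 2.19% of genes were. DESeq2 and limma called 0. The highest fold changes were DEPTOR at 0.37 ± 0.28 and RAB31 at 0.34 ± 0.43, and outside the list ESR1 had -0.21 ± 0.24, TFF1 -0.20 ± 0.26 and PGR 0.79 ± 0.52. STC2 had the lowest fold change (log2 fold change -0.77 ± 0.26, edgeR adjusted p = 1), at 71.1% (69.1 to 73.2%) of the control with type 1 and 47.3% (46.02 to 48.7%) with type 2. With type 1, 33 of 35 members were below the control (median log2 difference of CPM -0.33), and with type 2, 19 of 35 were (median -0.01). The 8 proliferation markers were lower with knockdown in BT483, all at an unadjusted p under 0.05 and 0 called, with a median of -1.10, and the 8 interferon-stimulated genes were higher with a median of 2.40 and 0 called. Their part in the members' result was not tested.

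In T47D-TamR, 17 of the 26 detected members were higher with knockdown and the median log2 fold change was 0.11, with a range from -0.61 to 0.79. By edgeR 0 were called, where 0.00416% of genes were, and 4 had an unadjusted p under 0.05, where 5.71% of genes did, while DESeq2 and limma called 0. The 4 were HSPB8 (0.79 ± 0.26), TSKU (0.60 ± 0.23), PRSS23 (0.59 ± 0.27) and SGK3 (-0.61 ± 0.27). HSPB8 was at 146% (134 to 158%) of the control with type 1 and 212% (196 to 229%) with type 2, and TSKU at 134% (123 to 147%) and 188% (172 to 204%). With type 1, 15 of 25 members were below the control (median log2 difference of CPM -0.10), and with type 2, 18 of 26 were above it (median 0.15), of which 7 (CELSR2, RAB31, ADCY9, PRSS23, TSKU, CA12 and HSPB8) were over 1.5-fold higher, where 4.52% of 11738 genes were. ESR1 had a log2 fold change of 0.11 ± 0.23 in the fit. The difference of the knockdown effects between the lines was negative for 21 of the 26 detected members, with a median of -0.19, and was called for 0, where 0% of genes were, with 1 member (STC2, -1.12 ± 0.37) at an unadjusted p under 0.05, where 3.06% of genes were, and 0 called by DESeq2 or limma. After STC2 the lowest were HSPB8 at -0.63 ± 0.37 and TSKU at -0.62 ± 0.32, the highest was NRIP1 at 0.52 ± 0.28, and ESR1 had -0.32 ± 0.33 and NLK -0.75 ± 0.36.

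In BT483, tamoxifen and knockdown were each compared with the same control siRNA library, which cancels when the 2 effects are subtracted. In T47D-TamR the tamoxifen effect also holds the pair of the drug arm, so there it does not cancel. In BT483 the tamoxifen effect minus the knockdown effect was negative for 32 of 36 members, with a median of -0.84. It was called for 10 (GREB1, NRIP1, GFRA1, SUSD3, PDZK1, RERG, RAPGEFL1, STC2, TSKU and ELOVL2), where 0.629% of genes were lower and called, and 20 had an unadjusted p under 0.05, where 5.66% of genes were lower at that p. SUSD3 was lowest (log2 fold change -3.53 ± 0.37, edgeR adjusted p = 0.000653), followed by GFRA1 (-3.30 ± 0.33), PDZK1 (-2.99 ± 0.42) and GREB1 (-2.89 ± 0.23). NRIP1 was called here (log2 fold change -1.02 ± 0.22, edgeR adjusted p = 0.0472), and its BT483 level was above the control in both knockdown libraries and below it with tamoxifen. The highest was ABCA3 at 0.21 ± 0.21. Outside the list TFF1 had log2 fold change -3.20 ± 0.31, edgeR adjusted p = 0.00279, PGR had log2 fold change -4.31 ± 0.67, edgeR adjusted p = 0.0257, and ESR1 had -0.13 ± 0.24. Leaving out single libraries gave 5 to 14 calls: 5 without any 1 of the 5 T47D-TamR libraries other than the knockdown pair (GREB1, GFRA1, SUSD3, PDZK1 and ELOVL2), 6 without BT483 type 2 and 14 without BT483 type 1. In T47D-TamR 17 of the 26 detected members were lower in this contrast, with a median of -0.06, 0 were called, where 0% of genes were, and 2 (HSPB8, -0.60 ± 0.25, and NRIP1, -0.51 ± 0.20) had an unadjusted p under 0.05, where 3.13% of genes did, with 0 called by DESeq2 or limma. The lowest was CA12 at -0.61 ± 0.39, the highest DEPTOR at 0.53 ± 0.26, and ESR1 had -0.09 ± 0.23.

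The 2 siRNAs were compared with each other over both lines. Type 2 was higher than type 1 for 21 of the 26 members detected in T47D-TamR, with a median of 0.23 against 0.01 over all genes tested. None was called by edgeR, where 0.47% of genes were, and 8 were higher at an unadjusted p under 0.05, where 4.81% of genes were. They were RAB31 (0.92 ± 0.26), CELSR2 (0.85 ± 0.29), UGCG (0.80 ± 0.23), ADCY9 (0.79 ± 0.20), CA12 (0.72 ± 0.19), HSPB8 (0.55 ± 0.25), MREG (0.40 ± 0.17) and XBP1 (0.33 ± 0.14). EGR3 was also higher at that p (1.07 ± 0.38), with 2 counts or fewer in the knockdown libraries of T47D-TamR, so its value rests mainly on BT483. Outside the list ESR1 had 0.45 ± 0.15 and NLK -0.14 ± 0.28. For ADCY9 the type 2 library was the highest of its line in both lines, at 139% (130.0 to 148%) and 155% (143 to 169%) of the control. The same held for RAB31, CELSR2, HSPB8, MREG, TSKU and PRSS23. DESeq2 called ADCY9 and CA12, where 345 of 24023 genes were called, and limma called 0. Without the BT483 tamoxifen library 4 were called (CELSR2, RAB31, ADCY9 and CA12), where 406 of 23656 genes were. STC2, GFRA1, SGK3 and PKIB had the lowest values of this contrast, from -0.56 to -0.28. The 8 interferon-stimulated genes moved with the siRNA, summing to 324.5, 643, 2804 and 272 CPM in BT483 and to 1346, 1697, 2449 and 1220 CPM in the siRNA arm of T47D-TamR, and their part in the members' result was not tested.

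**Figure D4:**
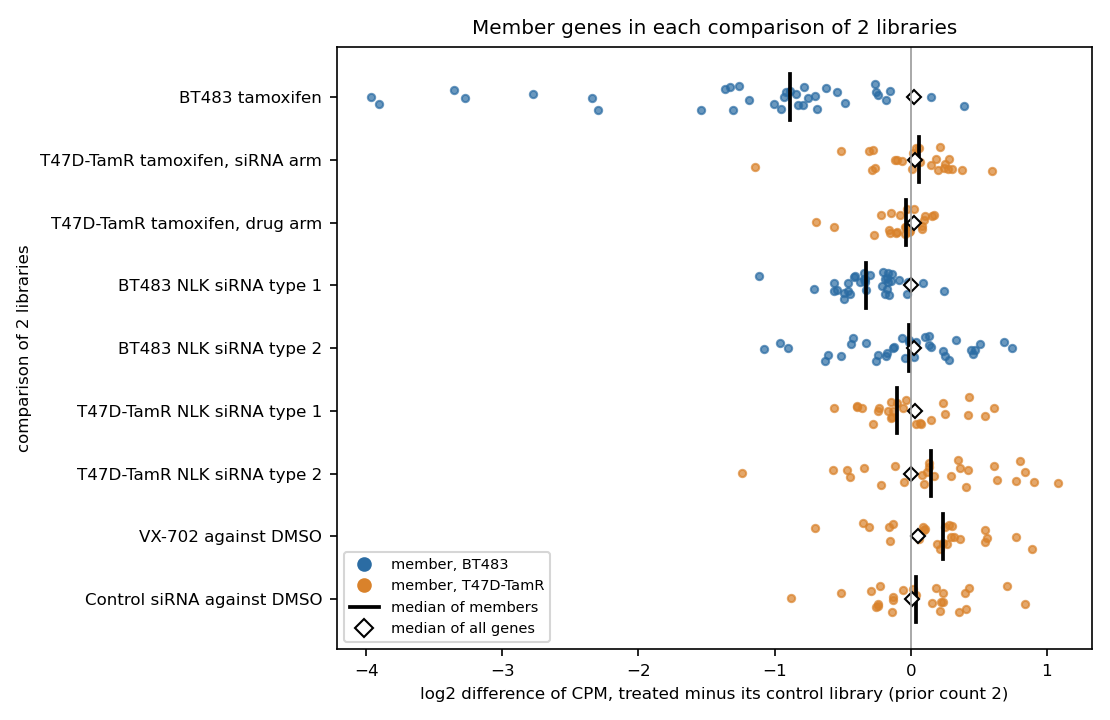
Log2 difference of CPM (horizontal axis, prior count of 2) between a treated library and its control in 9 comparisons of 2 libraries (vertical axis), 1 point a member with an average of at least 5 CPM, black bars for the median of the members and open diamonds for the median of all genes. The member median leaves that of all genes most with tamoxifen in BT483 (-0.89), and less with type 1 in BT483 (-0.33) and VX-702 (0.24).

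For VX-702 there was a single library, set against the DMSO library of T47D-TamR with no replicate check and no test. Of 25 members with an average of at least 5 CPM, 19 were higher and 6 lower, with a median log2 difference of 0.24 against 0.05 over 11738 genes. DEPTOR at 187% (144 to 245%) of DMSO and HSPB8 at 171% (154 to 189.6%) were over 1.5-fold higher, 2 of 25 members where 1.17% of genes were. NRIP1, at 61.3% (55.5 to 67.6%), was 1 of 25 over 1.5-fold lower, where 4.43% of genes were. PRSS23 (148%), CA12 (146%) and STC2 (146%) came next among the higher members.

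Control siRNA against DMSO sets the controls of the 2 arms of T47D-TamR against each other, again with no test. Its member median was 0.04, with 14 of 25 higher. DEPTOR at 181% (139 to 237%) and HSPB8 at 163% (147 to 181%) were over 1.5-fold higher, 2 of 25 where 2.75% of genes were, and CA12, at 54.2% (48.4 to 60.5%), was 1 of 25 over 1.5-fold lower, where 1.31% of genes were. DEPTOR and HSPB8 thus stood above DMSO in both comparisons, which share the DMSO library. NRIP1 was 114% of DMSO with control siRNA, and lower with VX-702 and with tamoxifen, which also share that library. The deposited log2 TPM values gave a median of 0.11 for VX-702, and RLE scaling gave 5 members over 1.5-fold in either direction in place of 3. The interferon-stimulated genes summed to 1346 CPM with control siRNA against 274.5 CPM with DMSO and 344 CPM with VX-702, and their part in the comparison with control siRNA was not tested.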

How the data were processed

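Poly(A) RNA of 11 libraries was sequenced from stranded libraries, per the labels' protocols, and GRCh38 is named in the submitters' processing notes. The aligner and the strand setting were not given in the sources used here, nor was the annotation. For each library the authors deposited unnormalized counts of 59087 gene symbols and log2(TPM + 1) values. A deposited table of log2 TPM values for all libraries has nearly equal sorted values in each column.

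The counts were scaled by TMM and fitted with edgeR 4.0.16 in R 4.3.3 (quasi-likelihood test, robust, genes kept by filterByExpr), in 12 tests across genes, each adjusted by Benjamini-Hochberg over all genes tested, with a threshold of 0.05. The fits hold all 11 libraries, except the comparison of the lines, which holds the 8 of the siRNA arms. In fits per line the tamoxifen effect in BT483 rests on 1 library against 1. Comparisons of 2 libraries are log2 differences of CPM (prior count 2) of genes averaging 5 CPM or more, called past 1.5-fold and without a test. Intervals of count ratios are exact 95% binomial intervals and cover counting error only. Alternatives were DESeq2 1.42.0, limma 3.58.1 on the deposited log2 TPM table, RLE scaling, no filter, at least 10 counts in every library, and each library left out in turn. Further checks, of length and GC content and of members with at least 5 CPM in T47D-TamR, were added after the data were seen. The test scripts were tested on simulated counts with a biological coefficient of variation of 0.05, while that of the fits here was 0.162 to 0.179. That run does not show how the tests behave at the spread of these data.

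All 36 members are accounted for. The rule for named genes took members that were called or among the highest and lowest fold changes of a comparison, and the values of all members in every library are given. ESR1 and NLK are given for the comparisons, and TFF1 and PGR mainly for BT483, since both are under 1 CPM in T47D-TamR. The members and the other lists were chosen with earlier results of these data known.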

Additional observations from a re-analysis of the deposited data

Results flagged for a closer look

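For PDZK1 and STC2 the response to tamoxifen differed between the lines in the edgeR test of the difference itself. The log2 fold change in BT483 minus that in T47D-TamR was -4.156 for PDZK1 and -2.32 for STC2. PDZK1 had 4 to 14 counts in each T47D-TamR library, so its difference rests on few counts there. STC2 had 482 to 920 counts in each.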

How the results depend on the processing

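Counts below are members called of 36. With DESeq2, 4 were called for tamoxifen over both lines, 1 for tamoxifen in T47D-TamR, 6 for the difference between lines, 16 for tamoxifen minus knockdown in BT483 and 2 between the siRNAs. Over all 24023 genes these runs called 120, 162, 330, 368 and 345, in that order. With at least 10 counts in every library, which removes members near 0 in T47D-TamR, the counts were 0 over both lines, 3 in BT483, 0 for the difference and 0 for tamoxifen minus knockdown in BT483. Over the 14670 genes left, 0, 254, 116 and 55 were called in that order. With no filter they were 11 over both lines, 1 in T47D-TamR, 7 for the difference, 18 for tamoxifen minus knockdown in BT483, 3 between the siRNAs, and 1 each for knockdown over both lines, in BT483 and in T47D-TamR. Over all 41317 genes these runs called 513, 354, 502, 639, 339, 249, 163 and 108 in that order. With limma they were 0 over both lines, 2 in BT483, 0 for the difference and 2 for tamoxifen minus knockdown in BT483. Over the 18727 genes tested by limma, 0, 7, 1 and 7 were called in that order. RLE scaling gave 5 members past 1.5-fold with VX-702. The causes were not tested where the filter does not show them.

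Leaving out 1 library at a time gave 7 to 13 calls for tamoxifen in BT483, 0 to 1 in T47D-TamR, 0 to 3 over both lines, 0 to 6 for the difference, 5 to 14 for tamoxifen minus knockdown in BT483, 0 to 4 between the siRNAs and 28 to 31 between the lines. Calls over all genes in the same runs ranged from 190 to 480, 0 to 100, 0 to 81, 0 to 271, 36 to 336, 0 to 406 and 14535 to 15363, in that order. Fits per line without the BT483 control library, and tamoxifen contrasts in BT483 without its tamoxifen library, could not be fitted. No member's called direction reversed under any alternative run. Subtracting a trend on transcript length and GC content, added after the data were seen, changed the member median from -0.89 to -0.82 with tamoxifen in BT483, and in the T47D-TamR drug arm took the number lower from 17 to 11 of 24. No paired analysis was possible because each group has 1 library and no replicate numbers are shared; matching by line and arm is part of the fits already.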
